A study of Rattus norvegicus with 6 samples.

Results

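Cyclins, the cyclin-dependent kinases (CDKs) they activate, the inhibitors of these kinases and the enzymes that set their phosphorylation were followed in rat cells that had received an siRNA against eIF3m (3 libraries) or a control siRNA (3 libraries). Members were taken by gene symbol: plain symbols of the cyclin, CDK, Cdkn1, Cdkn2 and Cdc25 families, and Cdkn3, Cks1b, Cks2, Wee1 and Pkmyt1. Family symbols of another form, such as Cdk11b, Ccnyl1 and Ccnjl, fell outside this rule and stand among the partner genes described below. This gave 55 of the 31011 genes whose symbols are intact in the count files, and 50 of them had enough counts to be tested. The labels call the cells NRVM and derive them from heart muscle of rat embryos. All libraries came from cells kept in DMEM with serum and given an siRNA. The extraction text also holds a medium with dexamethasone and isobutylmethylxanthine, then insulin, and does not say whether these cells received it. The labels do not say whether the libraries of a group came from separate cultures, so p-values here speak only of how far these libraries scatter, and that scatter may be technical. eIF3m belongs to the eIF3 complex, which brings the small ribosomal subunit to mRNAs at the start of translation, and the comparison asks how RNA levels differ when it is knocked down.

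A CDK is inactive until a cyclin binds it, and different cyclins accumulate in different stretches of the division cycle. D-type cyclins with CDK4 and CDK6 act in G1, cyclin E with CDK2 at the entry into DNA synthesis, cyclin A with CDK2 and CDK1 through DNA synthesis and G2, and cyclin B with CDK1 in mitosis. WEE1 and PKMYT1 hold CDK1 inactive by phosphorylation, CDC25 phosphatases remove that phosphate, and inhibitors of the CIP/KIP and INK4 families block the kinases directly. Other CDKs, among them CDK7, CDK8, CDK9, CDK12 and CDK13, phosphorylate the transcription machinery rather than driving division. Cardiomyocytes largely leave the division cycle around birth, and D-type cyclins, CDK4 and the inhibitors are well studied in that withdrawal.

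Library totals ran from 2156186 to 10061575 counts with eIF3m siRNA, the lowest in replicate 2, and from 7437285 to 8603602 counts with control siRNA. Eif3m itself stood at 91.7, 83.9 and 87.3 CPM (reads per gene relative to each library's TMM-scaled total) in eIF3m siRNA libraries, against 137, 136 and 141 CPM in control siRNA libraries (log2 fold change -0.64 ± 0.05 SE, adjusted p = 1.41e-07 by edgeR). Most cardiomyocyte markers were near the detection floor: 3 of 12 passed the filter (Tnnt2, Pln and Nkx2-5), while Myh6, Myh7, Myl2 and Actn2 did not, so the data go against the label for most of its defining markers. The myogenic factor Myod1 averaged 15.9 ± 3.17 CPM with eIF3m siRNA and 15.9 ± 2.46 CPM with control siRNA (SD, n = 3 each). Marker sums moved with the groups: 12 cardiomyocyte markers summed to 168 to 189 CPM with eIF3m siRNA and 411 to 420 CPM with control siRNA (0 higher and 2 lower of 3 tested). Most of these sums was Tnnt2, at 142 to 158 CPM with eIF3m siRNA and 359 to 376 CPM with control siRNA. Pln was the other that fell, and Nkx2-5 was not called (0.032 ± 0.12 SE, adjusted p = 0.867). The 9 skeletal myoblast markers summed to 41.4 to 47.2 CPM with eIF3m siRNA and 80.4 to 86.2 CPM with control siRNA (0 higher and 4 lower of 5 tested, Pax7 at 0 throughout). Of 7 fibroblast markers tested, 5 were higher and 1 lower. Among those higher, Dcn was at 55.4 CPM in eIF3m replicate 1, against 2.21 and 1.80 CPM in eIF3m replicates 2 and 3. Lum was at 10.3 CPM there, against 3.97 and 2.88 CPM, while Col1a1, Col3a1 and Postn were at similar levels in the 3 eIF3m libraries. The library of eIF3m replicate 1 stood apart: 8 endothelial markers summed to 179.7 CPM there, against 21.6 and 13.6 CPM in eIF3m replicates 2 and 3 and 8.85 to 15.6 CPM in controls. The 6 red blood cell markers summed to 6216 CPM there, against 229 and 51.0 CPM in eIF3m replicates 2 and 3 and 31.5 to 78.0 CPM in controls. The 8 leukocyte markers summed to 49.96 CPM there, against 22.1 and 23.4 CPM in eIF3m replicates 2 and 3 and 29.6 to 32.2 CPM in controls. Of the 3 leukocyte markers tested, 1 was higher and 1 lower. No marker of these lists was at 0 in all 6 libraries, and Cdh5 was at 0 outside eIF3m replicate 1. The part of these markers in the results was not tested, and counts are given with and without that library. In bulk RNA, a larger share of dividing cells and more of a transcript per cell cannot be told apart.

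The cyclin and CDK genes of DNA synthesis and mitosis rose in the eIF3m siRNA cells, and so did the kinases that restrain CDK1 and several inhibitors. Of the G1 kinases and cyclins none rose, and Ccnd1 fell. Of the 50 members tested, 25 rose and 1 fell (edgeR quasi-likelihood test, Benjamini-Hochberg adjusted p under 0.05 over 12724 genes). Over all genes tested, 17.4% rose and 21.2% fell, so the members' 50% higher lay above the background and their 2% lower lay below it. Their median log2 fold change, eIF3m over control, was 0.28, against 0.013 over all genes. The 3 eIF3m libraries lay above all 3 controls in CPM for 28 members and below them for 2, against 23.3% and 25.3% of all genes. Changes were modest in size. Of the 50 members 2 (Ccnb2 and Ccnj) were called at 2-fold or more, beside 520 of the 12724 genes tested, a similar share. Ccnj had few counts and passed the filter through the eIF3m libraries alone, so its place among the 25 that rose is no support. Without eIF3m replicate 1 the counts were 25 higher and 1 lower, of which 23 and 1 were shared with the full set, while 15.4% and 19.2% of all genes were called higher and lower. By DESeq2, Ccne2, Ccnt1, Cdk18, Cdkn2b and Cks1b were no longer called. With all libraries thinned to the smallest, Ccnj, Cdk19 and Cdkn1a were lost as well. By summed counts, the 55 members made up 0.485%, 0.491% and 0.495% of the eIF3m libraries, against 0.412%, 0.408% and 0.404% of the control libraries. These are shares of unscaled totals. The TMM factors were 1.045 to 1.057 for eIF3m libraries and 0.948 to 0.953 for control libraries, so scaled totals would narrow this difference. One fitted shift touches every fold change: with no scaling factors the fold changes of all genes moved up by a median of 0.14 (log2), which made 38 members higher and 0 lower. Under that setting 4126 of the 12724 genes were higher and 1684 lower, and counts by role below under that setting are to be read beside these.

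**Figure D1:**
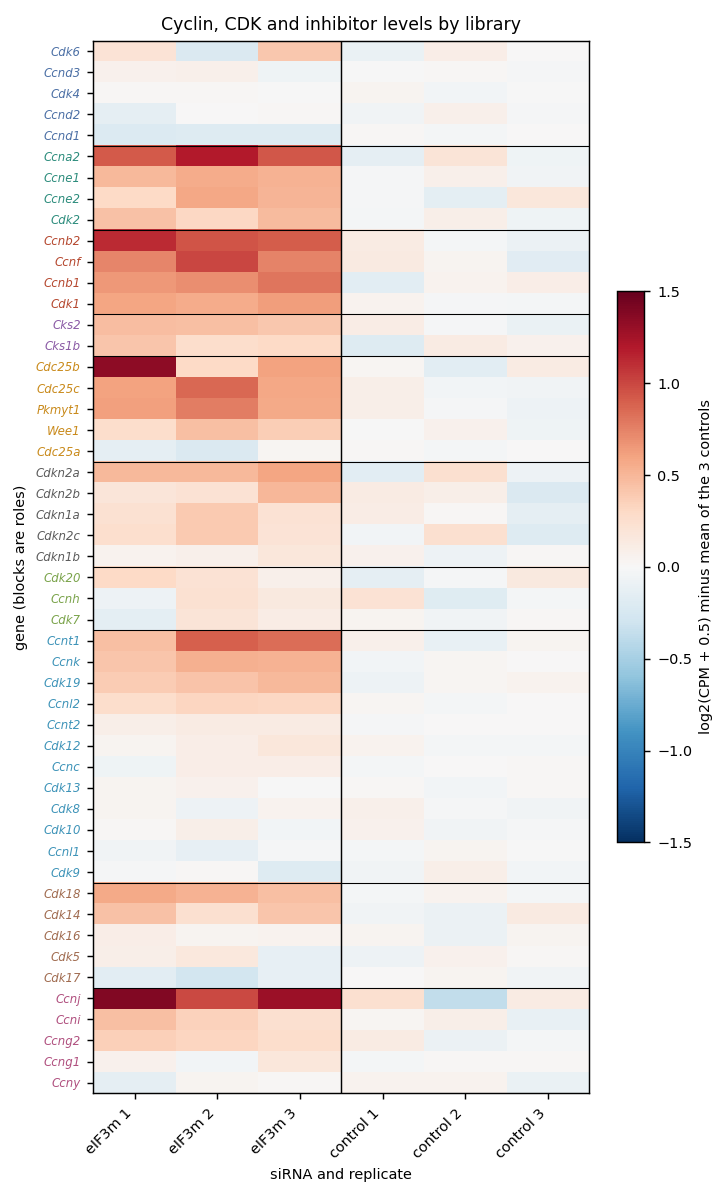
Levels of the 50 tested members (rows, in blocks by role) in each of the 6 libraries (columns, eIF3m siRNA left of control siRNA), as log2(CPM + 0.5) minus the mean of the 3 controls. The blocks of S phase and mitotic genes are red in all 3 eIF3m libraries, and Ccnd1 is the member of the G1 block that is pale blue in all 3.

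Every tested gene of the mitotic group rose: Ccnb1, Ccnb2, Ccnf and Cdk1 (4 of 4, median 0.76), beside 17.4% of all genes. Cdk1 encodes the kinase that drives entry into mitosis. It stood at 88.6, 86.1 and 90.8 CPM in eIF3m siRNA libraries, against 60.6, 57.8 and 57.3 CPM in control siRNA libraries. The lowest eIF3m library lay well above the highest control, and the log2 fold change was 0.60 ± 0.05 SE (adjusted p = 3.73e-07). Ccnb1 encodes cyclin B1, its main partner, and stood at 48.9, 50.3 and 54.1 CPM with eIF3m siRNA, against 27.7, 32.03 and 33.2 CPM with control siRNA (0.72 ± 0.08 SE, adjusted p = 7.3e-06). Ccnb2, the second B-type cyclin of dividing cells, had the largest change of this group: 32.04, 28.3 and 27.5 CPM with eIF3m siRNA, against 15.7, 14.2 and 13.5 CPM with control siRNA (1.03 ± 0.11 SE, adjusted p = 3.35e-06). Ccnf encodes cyclin F, which binds no CDK and serves as the substrate adaptor of an SCF ubiquitin ligase. It averaged 32.1 ± 3.54 CPM with eIF3m siRNA and 17.9 ± 1.94 CPM with control siRNA (SD, n = 3 each; 0.81 ± 0.11 SE, adjusted p = 4.02e-05). In none of these 4 genes did the groups overlap, and each passed under all 15 alternatives. As a share of the members' counts, the mitotic group made up 4.31%, 4.31% and 4.33% of the eIF3m libraries, against 2.86%, 2.87% and 2.81% of the control libraries, a measure that needs no scaling between libraries.

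These genes are known for promoters that carry CCAAT boxes in regular spacing and, close to the start, a cell cycle homology region (CHR), the element bound by the DREAM and MYBL2-FOXM1 complexes in human cells. The promoters of Ccnb2, Cdk1, Ccnb1 and Cks2 are shown for that layout, beside that of Cdk4, a member that was not called. They are chosen examples and do not show that the layout follows the call. Matches over all members, called and not called, are given further below. Each run gives, 5′ to 3′ on the gene's strand, 150 bases before and 20 bases from the annotated start (RefSeq, GRCr8). Capitals mark matches to CCAAT, to the CHR letters TTTGAA or TTCGAA, and to the E2F letters TTTNNCGC, each on either strand.
Ccnb2 (chr8:79981639-79981808, minus strand): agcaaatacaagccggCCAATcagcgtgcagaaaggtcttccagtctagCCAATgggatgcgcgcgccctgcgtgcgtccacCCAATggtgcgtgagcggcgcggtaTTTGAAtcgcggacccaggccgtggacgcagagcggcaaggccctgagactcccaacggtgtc
Cdk1 (chr20:19265143-19265312, plus strand): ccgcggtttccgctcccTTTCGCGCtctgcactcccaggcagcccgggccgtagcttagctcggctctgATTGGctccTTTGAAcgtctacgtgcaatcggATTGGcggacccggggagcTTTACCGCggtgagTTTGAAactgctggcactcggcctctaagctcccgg
Ccnb1 (chr2:33655206-33655375, minus strand): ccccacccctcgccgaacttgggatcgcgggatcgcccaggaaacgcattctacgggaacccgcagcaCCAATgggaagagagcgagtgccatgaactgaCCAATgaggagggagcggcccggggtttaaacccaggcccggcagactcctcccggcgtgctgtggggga
Cks2 (chr17:13727500-13727669, minus strand): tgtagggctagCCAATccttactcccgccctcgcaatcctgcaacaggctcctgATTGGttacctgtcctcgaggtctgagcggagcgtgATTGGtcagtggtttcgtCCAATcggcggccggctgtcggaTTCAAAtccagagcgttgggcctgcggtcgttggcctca
Cdk4 (chr7:64771303-64771472, plus strand): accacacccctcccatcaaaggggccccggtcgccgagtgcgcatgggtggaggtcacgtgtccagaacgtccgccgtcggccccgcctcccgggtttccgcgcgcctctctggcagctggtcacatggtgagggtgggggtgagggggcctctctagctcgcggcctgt
In Ccnb2 the CCAAT matches began at -134, -101 and -68 relative to the start, 33 bases apart each time, with a CHR match at -43, and a further one at -214 outside the run shown. Cdk1 had, within the run, CCAAT matches at -81 and -49, 32 apart, CHR matches at -72 and -16, and E2F matches at -133 and -30. Ccnb1 had CCAAT matches at -82 and -50, again 32 apart, and no CHR match. Cks2 had a CHR match at -19 and CCAAT matches at -139, -96, -60 and -42. The window of Cdk4 held no match.

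**Figure D2:**
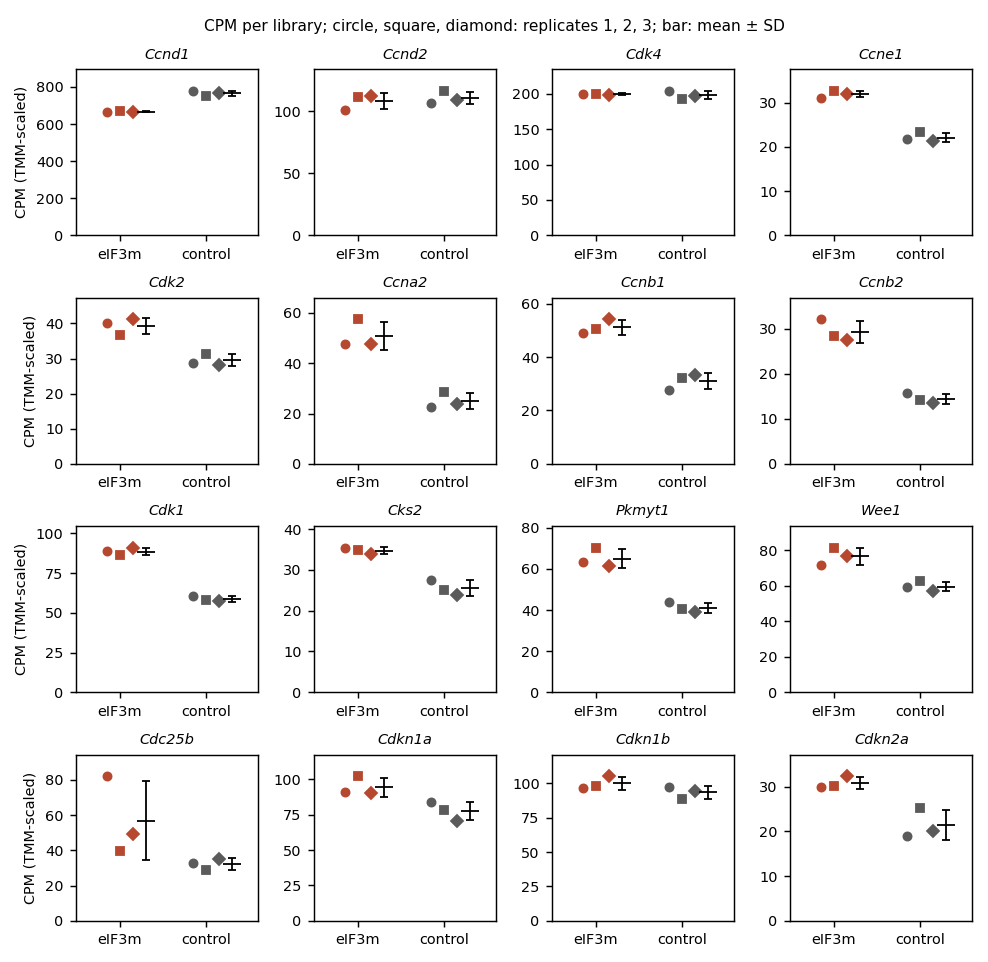
CPM in each library for 16 members, eIF3m siRNA (red) left of control siRNA (grey), with replicates 1, 2 and 3 as circle, square and diamond and the mean ± SD beside them. The eIF3m points are all lower in Ccnd1 and all higher in Ccne1, Cdk2, Ccna2, Ccnb1, Ccnb2, Cdk1, Cks2, Pkmyt1, Wee1, Cdkn1a and Cdkn2a, they overlap in Ccnd2, Cdk4 and Cdkn1b, and Cdc25b has 1 eIF3m library at 82.0 CPM.

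All 4 tested genes of the S phase group rose as well (median 0.49), beside 17.4% of all genes. Ccna2 encodes cyclin A2, the cyclin of DNA synthesis and G2. It stood at 47.5, 57.4 and 47.7 CPM in eIF3m siRNA libraries, against 22.6, 28.6 and 23.7 CPM in control siRNA libraries, close to 2-fold (0.98 ± 0.10 SE, adjusted p = 1.8e-06). Ccne1, cyclin E1, which drives the start of replication, stood at 31.2, 32.7 and 32.03 CPM with eIF3m siRNA, against 21.8, 23.4 and 21.3 CPM with control siRNA (0.52 ± 0.09 SE, adjusted p = 3.57e-04). Its paralogue Ccne2 stood at 14.5, 17.7 and 16.8 CPM with eIF3m siRNA and 11.5, 10.5 and 13.2 CPM with control siRNA (0.45 ± 0.15 SE, adjusted p = 0.0234). That call was lost without control replicate 1 (0.44, adjusted p = 0.0624), control replicate 2 (0.37, adjusted p = 0.0926) or eIF3m replicate 3 (0.40, adjusted p = 0.0884), and Ccne2 overlaps Ints8 in the RefSeq annotation. Cdk2, the kinase of cyclins E and A, stood at 40.0, 36.6 and 41.2 CPM with eIF3m siRNA, against 28.9, 31.4 and 28.2 CPM with control siRNA (0.44 ± 0.08 SE, adjusted p = 7.84e-04). Groups were apart in each of the 4 genes. Ccna1, the germ-line cyclin A, had 0 counts in all 6 libraries, which allows up to 3 counts, or 0.286 to 1.32 CPM depending on the library.

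In the G1 group 0 of 5 members rose and 1 fell (median 0.0098), beside 17.4% and 21.2% of all genes. With no scaling factors 3 of the 5 were higher and 0 lower (Ccnd3 0.16, Cdk4 0.15 and Cdk6 0.36). Ccnd1 encodes cyclin D1, the cyclin through which growth signals reach CDK4 and CDK6. It stood at 664, 669.9 and 668 CPM in eIF3m siRNA libraries, against 778, 753 and 768 CPM in control siRNA libraries. The decrease was small and the libraries of each group lay close together (log2 fold change -0.20 ± 0.03 SE, adjusted p = 5.41e-05). Leaving out any library kept the call (-0.21 to -0.19), but with no scaling factors the value was -0.056 (adjusted p = 0.136), so the decrease is relative to the bulk of genes. Ccnd2 stood at 101, 112 and 113 CPM with eIF3m siRNA, against 107, 117 and 109.6 CPM with control siRNA, and its groups overlapped (-0.042 ± 0.06 SE, adjusted p = 0.607). Ccnd3 averaged 175 ± 9.49 CPM with eIF3m siRNA and 172 ± 1.87 CPM with control siRNA (0.020 ± 0.05 SE, adjusted p = 0.794). Cdk4, which D-type cyclins activate, stood at 200.2, 199.6 and 198 CPM with eIF3m siRNA, against 204, 193 and 197 CPM with control siRNA (0.0098 ± 0.05 SE, adjusted p = 0.896). Cdk6 stood at 29.2, 21.6 and 33.6 CPM with eIF3m siRNA, against 23.6, 27.1 and 25.3 CPM with control siRNA, overlapping (0.22 ± 0.12 SE, adjusted p = 0.166). Without eIF3m replicate 2, the smallest library, Cdk6 passed at 0.30 (adjusted p = 0.0349). The G1 group's share of the members' counts was 25.3%, 25.4% and 25.1% in eIF3m libraries, against 29.7%, 29.5% and 29.8% in control libraries.

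**Figure D3:**
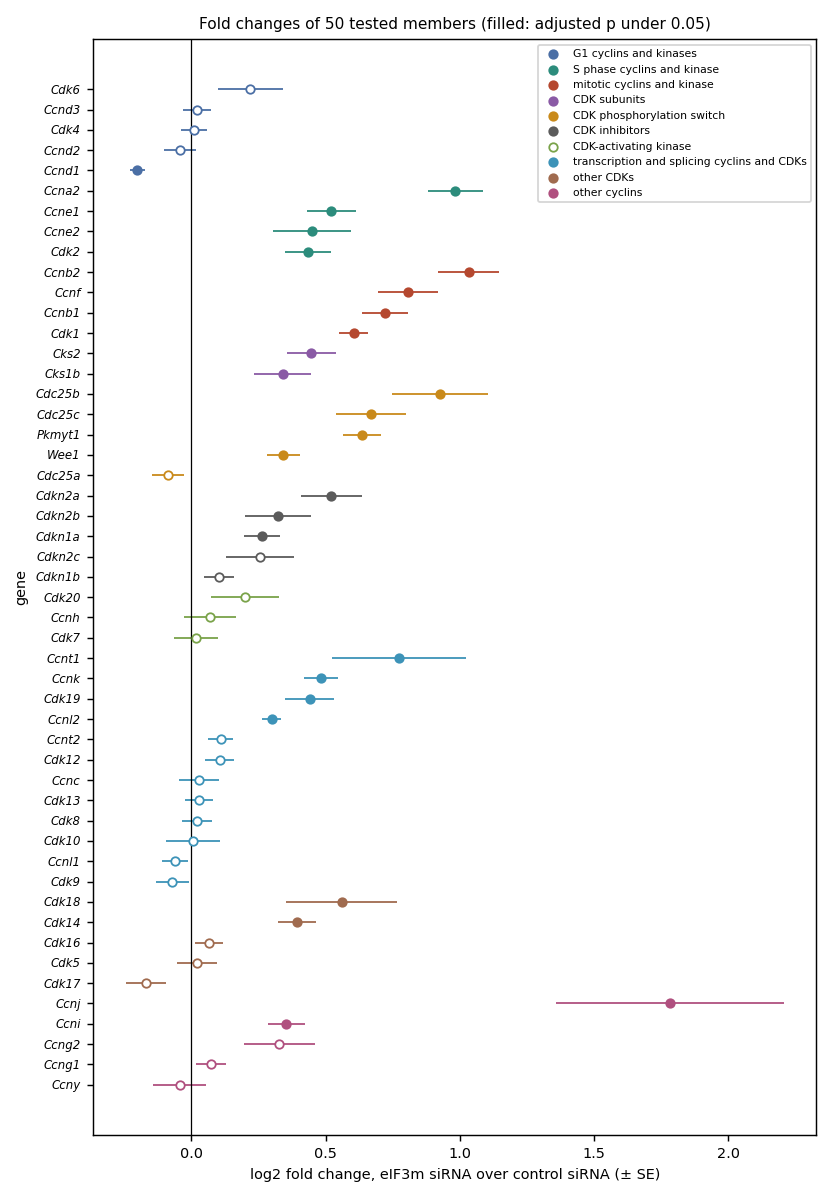
Log2 fold change of each tested member (x axis, eIF3m siRNA over control siRNA, bars ± SE), grouped and coloured by role, with filled points for adjusted p under 0.05. The mitotic and S phase genes lie between 0.44 and 1.03, whereas the G1 genes lie between -0.20 and 0.22.

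The small CDK subunits rose together. Cks1b and Cks2 dock CDK complexes onto phosphorylated substrates, and Cks1b also serves in the destruction of p27. Cks2 stood at 35.4, 34.9 and 33.8 CPM in eIF3m siRNA libraries, against 27.6, 25.1 and 23.7 CPM in control siRNA libraries (0.45 ± 0.09 SE, adjusted p = 0.00119). Cks1b stood at 31.1, 27.8 and 28.7 CPM with eIF3m siRNA, against 20.2, 25.3 and 24.3 CPM with control siRNA (0.34 ± 0.11 SE, adjusted p = 0.0189). The Cks1b call was lost without eIF3m replicate 1 (0.29, adjusted p = 0.0896) or control replicate 1 (0.25, adjusted p = 0.0932). These short genes resemble each other closely, and the sources used here do not give the handling of multi-mapping reads, so the division of counts between them is uncertain.

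The enzymes of the CDK1 switch rose on both of its sides: 4 of 5 tested members were higher and 0 lower (median 0.64), beside 17.4% and 21.2% of all genes. Pkmyt1, the membrane-bound kinase that phosphorylates CDK1, stood at 63.3, 70.2 and 61.3 CPM in eIF3m siRNA libraries, against 43.9, 40.6 and 39.0 CPM in control siRNA libraries (0.64 ± 0.07 SE, adjusted p = 4.36e-06). Wee1, the nuclear kinase with the same task, stood at 71.6, 81.2 and 76.8 CPM with eIF3m siRNA, against 59.0, 62.4 and 57.0 CPM with control siRNA (0.34 ± 0.06 SE, adjusted p = 4.41e-04). Both inhibitory kinases were thus higher in all 3 eIF3m libraries than in any control. On the activating side, Cdc25c stood at 18.3, 22.1 and 18.1 CPM with eIF3m siRNA, against 12.7, 11.6 and 11.4 CPM with control siRNA (0.67 ± 0.13 SE, adjusted p = 8.68e-04). Cdc25b stood at 82.0, 39.7 and 49.1 CPM with eIF3m siRNA, against 32.8, 28.7 and 35.0 CPM with control siRNA (0.93 ± 0.18 SE, adjusted p = 7.69e-04). The groups were apart, but the high value belonged to eIF3m replicate 1, the library with the endothelial and blood transcripts. Without it Cdc25b was at 0.53 (adjusted p = 6.7e-04), and with robust dispersion over all libraries the call was lost (adjusted p = 0.0894). Cdc25a, the phosphatase that acts on CDK2 as well, had overlapping groups, at 84.4, 79.5 and 94.4 CPM with eIF3m siRNA and 93.8, 90.9 and 93.2 CPM with control siRNA (-0.086 ± 0.06 SE, adjusted p = 0.287). It passed as lower without eIF3m replicate 3 (-0.15, adjusted p = 0.0496). Cdkn3, a phosphatase of the activating site of CDK2, was too scarce to be tested, with 1 to 13 counts per eIF3m library and 2 to 15 per control library.

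Among the CDK inhibitors 3 of 5 tested rose and 0 fell (median 0.26), beside 17.4% and 21.2% of all genes. With no scaling factors 5 of 5 were higher, beside 4126 of 12724 genes. Cdkn2a encodes p16INK4a and, from another reading frame, p19ARF, and counts per symbol do not separate these transcripts. It stood at 29.9, 30.03 and 32.3 CPM in eIF3m siRNA libraries, against 19.0, 25.3 and 20.2 CPM in control siRNA libraries (0.52 ± 0.11 SE, adjusted p = 0.00194). Cdkn1a, p21, the inhibitor induced by p53, stood at 90.8, 102 and 90.3 CPM with eIF3m siRNA, against 83.6, 78.4 and 70.7 CPM with control siRNA (0.26 ± 0.07 SE, adjusted p = 0.00587). The groups were apart in both genes. Cdkn2b, p15INK4b, the neighbour of Cdkn2a, stood at 25.1, 25.6 and 31.3 CPM with eIF3m siRNA, against 24.1, 23.4 and 18.9 CPM with control siRNA (0.32 ± 0.12 SE, adjusted p = 0.048). That call lay at the threshold and was lost without control replicate 2 (0.37, adjusted p = 0.0661), control replicate 3 (0.22, adjusted p = 0.211), eIF3m replicate 2 (0.35, adjusted p = 0.0505) or eIF3m replicate 3 (0.20, adjusted p = 0.295). Cdkn2c, p18INK4c, had overlapping groups, at 21.6, 23.9 and 21.0 CPM with eIF3m siRNA and 17.5, 21.4 and 15.7 CPM with control siRNA (0.26 ± 0.13 SE, adjusted p = 0.129), and it passed without control replicate 2 (0.39, adjusted p = 0.036). Cdkn1b, p27, stood at 96.9, 98.03 and 105 CPM with eIF3m siRNA, against 97.3, 88.3 and 94.5 CPM with control siRNA, also overlapping (0.10 ± 0.06 SE, adjusted p = 0.174). Cdkn1c, p57, an imprinted inhibitor, had 3, 0 and 1 counts with eIF3m siRNA and 0 in each control library, too few to compare. The share of the members' counts held by inhibitors was 5.70% to 5.99% in eIF3m libraries, against 5.16% to 5.58% in control libraries.

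Most members that serve transcription and splicing did not pass the test, with 4 higher and 0 lower of 12 (median 0.068), beside 17.4% and 21.2% of all genes. With no scaling factors 8 of the 12 were higher (median 0.21), beside a median of 0.16 over all genes. Ccnl2 encodes cyclin L2, a partner of CDK11 in pre-mRNA splicing. It stood at 579.6, 605 and 602 CPM in eIF3m siRNA libraries, against 493, 474 and 485 CPM in control siRNA libraries (0.30 ± 0.04 SE, adjusted p = 7.4e-06). Ccnk, cyclin K, the partner of CDK12 and CDK13, stood at 59.6, 64.5 and 64.3 CPM with eIF3m siRNA, against 43.4, 45.3 and 44.9 CPM with control siRNA (0.48 ± 0.06 SE, adjusted p = 2.3e-05). The kinases that cyclin K activates were not called: Cdk12 was at 0.11 ± 0.05 SE (adjusted p = 0.143) and Cdk13 at 0.029 ± 0.05 SE (adjusted p = 0.698). Cdk19, a kinase of the Mediator complex, stood at 31.2, 32.2 and 33.6 CPM with eIF3m siRNA, against 22.5, 24.2 and 24.6 CPM with control siRNA (0.44 ± 0.09 SE, adjusted p = 0.00135). Its paralogue Cdk8 (0.021 ± 0.06 SE, adjusted p = 0.802) and their cyclin Ccnc (0.030 ± 0.08 SE, adjusted p = 0.854) were not called. Cdk19 and Cdk8 overlap other annotated genes, and counting by strand is not stated. Ccnt1, cyclin T1, which with CDK9 forms the elongation factor P-TEFb, was scarce, with 50, 15 and 53 counts in eIF3m libraries and 25, 24 and 28 counts in control libraries (0.78 ± 0.25 SE, adjusted p = 0.0229). The Ccnt1 call was lost without control replicate 2 (0.72, adjusted p = 0.071), control replicate 3 (0.80, adjusted p = 0.0518) or eIF3m replicate 3 (0.67, adjusted p = 0.101). Ccnt2 was at 0.11 ± 0.05 SE (adjusted p = 0.0734) with groups apart, and passed without eIF3m replicate 1 (0.13, adjusted p = 0.0331), as did Cdk12 (0.16, adjusted p = 0.0363). Cdk9, Ccnl1 and Cdk10 were at -0.071, -0.060 and 0.0055, with adjusted p of 0.391, 0.342 and 0.994.

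The group of the CDK-activating kinase, here Cdk7, Ccnh and Cdk20, had no called member. CDK7 with cyclin H phosphorylates the T-loop of other CDKs and is also part of TFIIH. Cdk7 averaged 52.7 ± 6.36 CPM with eIF3m siRNA and 50.7 ± 1.76 CPM with control siRNA (0.016 ± 0.08 SE, adjusted p = 0.9). Its cyclin Ccnh (0.069 ± 0.10 SE, adjusted p = 0.605) and Cdk20 (0.20 ± 0.13 SE, adjusted p = 0.233) had overlapping groups too, and Cdk20 alone passed with no scaling factors (0.34, adjusted p = 0.036). At an unadjusted p under 0.05 none of these 3 was called either, with p of 0.844, 0.482 and 0.135.

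Of the remaining CDKs 2 of 5 rose, beside 17.4% of all genes. Cdk14, a kinase activated by the membrane-anchored cyclin Y, stood at 76.6, 66.2 and 75.0 CPM in eIF3m siRNA libraries, against 54.2, 53.0 and 61.8 CPM in control siRNA libraries (0.39 ± 0.07 SE, adjusted p = 4.19e-04). Ccny itself was at -0.043 ± 0.10 SE (adjusted p = 0.766). Cdk18 stood at 7.34, 7.07 and 6.72 CPM with eIF3m siRNA, against 4.67, 4.98 and 4.67 CPM with control siRNA (0.56 ± 0.21 SE, adjusted p = 0.0439), and this call was lost whichever library was left out (0.52 to 0.61). Cdk17 had its 3 eIF3m libraries below all controls, at 38.9, 35.8 and 39.8 CPM against 43.9, 44.8 and 41.9 CPM with control siRNA, without passing the test (-0.17 ± 0.07 SE, adjusted p = 0.0879). Cdk16 (0.066 ± 0.05 SE) and Cdk5, the neuronal kinase (0.022 ± 0.08 SE), were not called.

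Of the remaining cyclins 2 of 5 tested rose (Ccni and Ccnj), beside 17.4% of all genes. With no scaling factors 4 were higher, beside 4126 of 12724 genes. In both counts Ccnj, tested through its eIF3m libraries alone, is no support. Ccni, an atypical cyclin, stood at 100.6, 93.6 and 86.7 CPM in eIF3m siRNA libraries, against 75.0, 77.8 and 67.6 CPM in control siRNA libraries (0.35 ± 0.07 SE, adjusted p = 7.29e-04). Ccnj had 26, 4 and 19 counts in eIF3m libraries and 6, 3 and 6 counts in control libraries, so its fitted change of 1.78 ± 0.42 SE (adjusted p = 0.00367) rests on few counts, and it was not called after thinning (0.62, adjusted p = 0.586). It was the 1 member that passed the filter through the eIF3m libraries alone, which had to be high for it to be tested. Ccng1 is a target of p53 and Ccng2 of FoxO factors. Ccng2 stood at 15.8, 15.5 and 14.7 CPM with eIF3m siRNA, against 13.3, 11.5 and 11.9 CPM with control siRNA, apart but short of the threshold (0.33 ± 0.13 SE, adjusted p = 0.0653). Ccng1 was at 0.074 ± 0.05 SE (adjusted p = 0.311). Ccnb3 and Ccno, expressed mainly in germ cells and in multiciliated cells, had at most 3 and 6 counts in a library and were not tested.

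Ratios of related members within a library do not depend on the scaling between libraries, and 15 pairs were compared. With 3 libraries against 3 the exact permutation test (two-sided) cannot go below p = 0.1, so no pair could pass, and the lowest adjusted p was 0.25. The groups were apart in 6 pairs. The log2 ratio of Cdk1 to Cdk2 counts was 1.14, 1.23 and 1.14 in eIF3m siRNA libraries, against 1.07, 0.88 and 1.02 in control siRNA libraries (difference 0.18, exact p = 0.1). The log2 ratio of Wee1 to Pkmyt1 was 0.18, 0.21 and 0.32 with eIF3m siRNA, against 0.43, 0.62 and 0.55 with control siRNA (difference -0.29, exact p = 0.1). The ratio of Cdc25a to Cdc25b differed by -0.87, and by -0.56 without eIF3m replicate 1, a setting added after the data were seen. The ratio of Cdk8 to Cdk19 differed by -0.44. The ratio of Ccnl1 to Ccnl2 differed by -0.36 and that of Ccnt1 to Ccnt2 by 0.70. In the D-type cyclins the groups overlapped: the log2 ratio of Ccnd1 to Ccnd2 was 2.72, 2.58 and 2.57 with eIF3m siRNA, against 2.87, 2.69 and 2.81 with control siRNA (difference -0.17, exact p = 0.2). The pairs Ccne1 to Ccne2 (0.048, exact p = 0.9) and Cks1b to Cks2 (-0.12, exact p = 0.5) also overlapped.

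**Figure D4:**
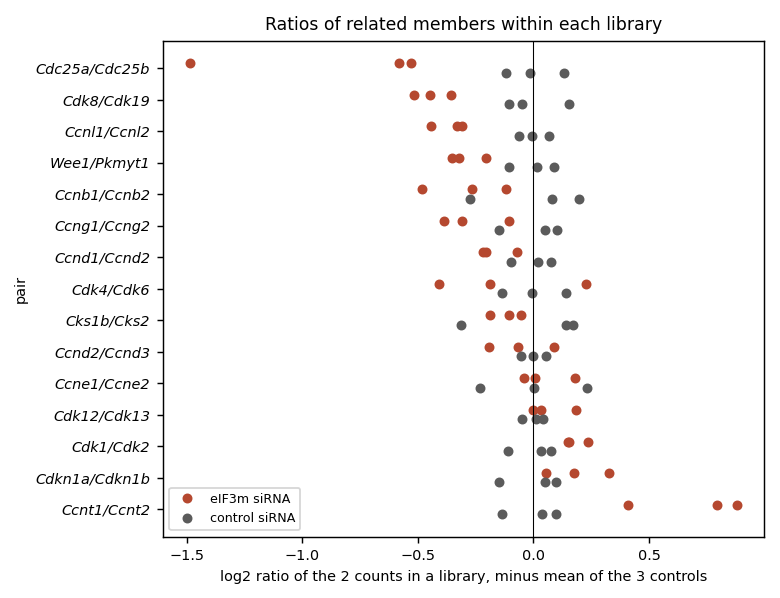
Log2 ratio of the counts of 15 pairs of related members in each library (x axis, minus the mean of the 3 controls), with eIF3m siRNA in red above control siRNA in grey for each pair. Red and grey points are apart in Cdc25a/Cdc25b, Cdk8/Cdk19, Ccnl1/Ccnl2, Wee1/Pkmyt1, Cdk1/Cdk2 and Ccnt1/Ccnt2.

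The promoter layout shown above was looked for in all members with a RefSeq promoter of 250 bases before and 50 after the start (44 of 55; Ccna2, Ccnd1, Ccnd2, Ccne2, Cdk6, Cdk9, Cdk13, Cdk17, Cdkn1c, Pkmyt1 and Wee1 have no entry). CHR letters were found in 3 of 5 genes of the mitotic group (Ccnb2, Ccnf and Cdk1), in Cks1b and Cks2, and in 3 of 4 genes of the switch group (Cdc25b, Cdc25c and Cdkn3). They were found in 0 of 3 S phase genes, 0 of 2 G1 genes and 0 of 10 transcription genes. The group of the CDK-activating kinase had them in 0 of 3 genes. They were also found in 2 of 4 other CDKs (Cdk16 and Cdk18), 2 of 6 other cyclins (Ccng1 and Ccni) and 1 of 5 inhibitors (Cdkn2b). Among all tested genes with a promoter 14.8% held the CHR letters, 39.6% CCAAT and 9.07% the E2F letters, against 12, 24 and 2 of the 40 tested members. Over all genes with a promoter, tested or not, the shares were 21.0%, 39.6% and 5.48%, against 13, 25 and 2 of the 44 members. CHR and CCAAT stood together in 9 of the 40 tested members and in 6.56% of tested genes, and in 10 of the 44 members and 9.15% of all genes. No match of these motifs shared bases with a match of another in the members. Counted by promoter, CHR letters were in 10 of 22 promoters of members called higher and in 2 of 22 of members not called. CCAAT was in 13 of 22 of each, and the E2F letters in 1 of 22 of each. Of all promoters of tested genes, 14.1% held CHR, 37.5% CCAAT and 8.39% E2F letters. Some genes had more than 1 promoter, and these shares were not tested. A match describes letters in the window and does not show binding.

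**Figure D5:**
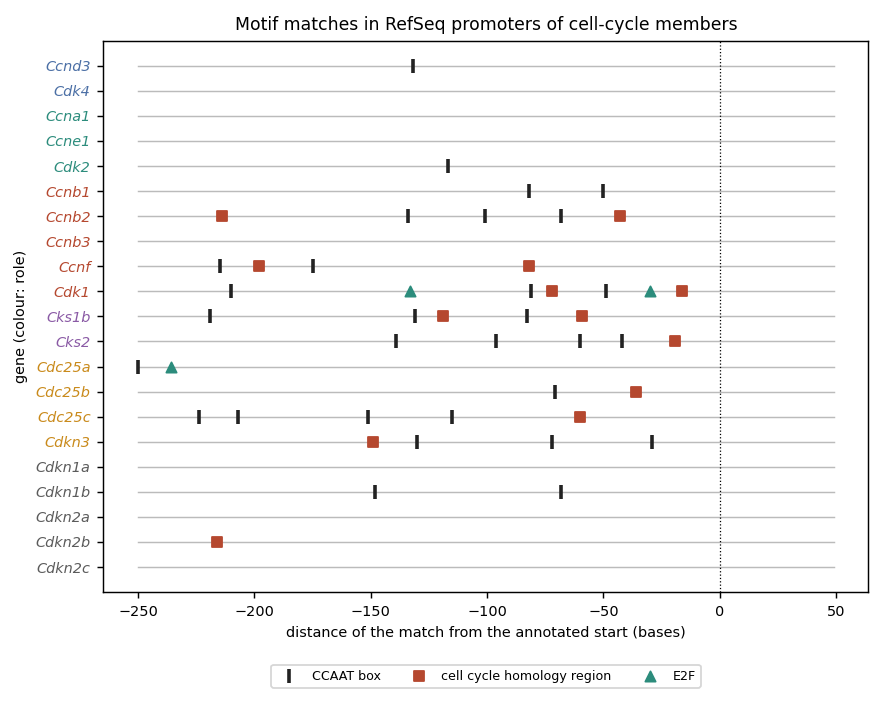
Positions of CCAAT (bars), CHR (squares) and E2F (triangles) matches on either strand, as distance in bases from the annotated start (dotted line), in the promoters of 21 members of the G1, S phase, mitotic, subunit, switch and inhibitor groups (name colour marks the group). CHR squares close to the start, with CCAAT bars upstream, are seen in Ccnb2, Cdk1, Cks1b, Cks2, Cdc25b and Cdc25c.

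A list of 79 genes that work with these members was written out from textbook roles, with earlier results of these data known. Its shares are therefore a description and no independent support. It had 74 genes tested, of which 28 rose (37.8%) and 8 fell (10.8%), with a median of 0.13. Over all genes 17.4% rose and 21.2% fell, with a median of 0.013. Regulators of transcription counted 11 higher (42.3%) and 2 lower (7.69%) of 26. Mybl2, a transcription factor that switches on G2 genes, averaged 59.1 ± 5.72 CPM with eIF3m siRNA and 32.3 ± 1.07 CPM with control siRNA (SD, n = 3 each; 0.90 ± 0.08 SE, adjusted p = 2.6e-07). Tfdp2, the E2F dimer partner (0.99 ± 0.15 SE), and Nfyb, a subunit of the CCAAT-binding factor NF-Y (0.63 ± 0.09 SE), also rose. Foxm1 (0.76 ± 0.12 SE), Lin9 (1.02 ± 0.22 SE) and Lin54 (0.38 ± 0.12 SE), named after their values were seen because they act with Mybl2, rose as well. The other listed subunits of that complex were not called: Lin37 was at -0.21 ± 0.11 SE (adjusted p = 0.164), Lin52 at -0.072 ± 0.21 SE (adjusted p = 0.92) and Rbbp4 at 0.18 ± 0.07 SE (adjusted p = 0.0578). Lin54 was not called without control replicate 1 (0.34), control replicate 2 (0.37) or eIF3m replicate 3 (0.35). The 2 that fell, also named after their values were seen, were Rb1, the retinoblastoma protein that D-type cyclin kinases phosphorylate (-0.35 ± 0.12 SE, adjusted p = 0.0356), and Mdm2, the ligase that degrades p53 (-0.13 ± 0.05 SE, adjusted p = 0.0332). Both calls were frail: Rb1 was called without control replicate 2 (-0.39) but not without any of the other 5 libraries (-0.38 to -0.32). Mdm2 was lost without control replicate 2 (-0.12), control replicate 3 (-0.12) or eIF3m replicate 2 (-0.12), and turned to 0.013 with no scaling factors. Around CDK1, 6 rose (46.2%) and 1 fell (7.69%) of 13: the mitotic kinase Plk1 averaged 69.98 ± 0.91 CPM with eIF3m siRNA and 50.01 ± 1.05 CPM with control siRNA (SD, n = 3 each; 0.48 ± 0.06 SE), and Cdc14a, a phosphatase that opposes CDKs, fell (-0.46 ± 0.09 SE). Genes of the ubiquitin system that acts on cyclins and inhibitors, not all of them ligases, counted 8 higher (44.4%) and 1 lower (5.56%) of 18. The 1 that fell was the ligase scaffold Cul1 (-0.29 ± 0.05 SE).

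Partners and adaptors of CDKs counted 3 higher (17.6%) and 4 lower (23.5%) of 17, shares near those over all genes. Hexim1, the protein that holds P-TEFb inactive, stood at 124, 124 and 112 CPM in eIF3m siRNA libraries, against 220.1, 213 and 216 CPM in control siRNA libraries (-0.86 ± 0.05 SE, adjusted p = 6.58e-09). It had the lowest p of the 74 genes, and its groups were far apart. Cdk2ap2 (-0.30 ± 0.07 SE), Cdk5rap3 (-0.32 ± 0.08 SE) and Cdk11b, the splicing kinase that binds L-type cyclins (-0.18 ± 0.05 SE), also fell. Cdk11b was not called without control replicate 1 (-0.16), control replicate 3 (-0.16) or eIF3m replicate 1 (-0.14), and stood at -0.033 with no scaling factors. Kat2a, an acetyltransferase (0.47 ± 0.05 SE), and Ccnyl1, a relative of cyclin Y (0.45 ± 0.06 SE), rose. Cdk2ap2 (-0.15) and Cdk5rap3 (-0.18) did not pass with no scaling factors. Without eIF3m replicate 1 the list of 74 counted 27 higher and 6 lower, and without control replicate 3 it counted 5 lower.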

How the data were processed

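RNA of 6 libraries of rat cells was sequenced. The authors deposited whole-number counts per gene symbol with no normalization. Per the submitters' processing notes, Trimmomatic 0.40, HISAT2 2.2.1, featureCounts, DESeq2 and limma were used with build rn6, with no order or role stated. The sources used here do not give annotation, strand or multi-mapping settings, so paralogues and overlapping genes are uncertain; 20 members overlap another gene in the RefSeq GRCr8 table, which served for names, neighbours and promoters. Each file lists 31038 rows, of which 27 are symbols turned into dates (0.203% to 0.216% of counts), left out.

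Differences in counts were tested with edgeR 4.0.16 under R 4.3.3 (filterByExpr, minimum count 10, minimum total 15; TMM; quasi-likelihood F-test, eIF3m siRNA over control siRNA, no covariate). Benjamini-Hochberg adjustment ran over 12724 genes, two-sided, with 0.05 as threshold. SE is the log2 fold change over the square root of F. CPM are relative to TMM-scaled totals, and 3 counts, the floor, are worth 0.286 to 1.32 CPM (counting error only). The members, roles, partner list and pairs were chosen with earlier results of these data known. Named are Eif3m, up to 4 called members per role by p, a fixed set of core members, and up to 6 partners per direction. Ratios used counts plus 0.5. The scripts were tested on simulated data. Alternatives covered scaling, limma-voom (limma 3.58.1), DESeq2 1.42.0, robust dispersion, filters, thinning, a replicate block and leaving out each library.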

Additional observations from a re-analysis of the deposited data

How the results depend on the processing

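Of the 26 called members, 16 passed under all 15 alternatives and 21 whichever library was left out. With no scaling factors 38 members rose and 0 fell (43 and 3 of the partners; all genes higher 4126, all genes lower 1684), against 25 and 1 (28 and 8; 2220 and 2700) with TMM. Mdm2 turned to 0.013 (adjusted p = 0.844) with no scaling factors. Upper-quartile scaling gave 30 members higher and 1 lower, and 35 partners higher and 5 lower. Over all genes that scaling gave 3015 higher and 2130 lower. Thinning to the smallest library gave 17 members higher and 1 lower, and 18 partners higher and 5 lower. Over all genes thinning gave 1258 higher and 1819 lower. Leaving out 1 library gave 21 to 25 members higher and 1 to 2 lower, the added one being Cdc25a without eIF3m replicate 3. It gave 5 to 7 partners lower, and over all genes 1760 to 2128 higher and 2330 to 2622 lower. DESeq2 gave 20 members higher and 1 lower, limma-voom 27 and 1. Over all genes DESeq2 gave 1585 higher and 2182 lower, limma-voom 2306 and 2774. Of the 24 members not called, 14 changed sign under at least 1 alternative and 10 were called under none. No pairing by replicate number was seen: same-numbered libraries' deviations correlated at 0.03, -0.0054 and 0.0077. With 3 libraries per group these values cannot exclude it. With a replicate block 23 members rose and 1 fell, Cdk18 (0.57, adjusted p = 0.0601) and Cdkn2b (0.33, adjusted p = 0.072) no longer passing. Over all genes 2123 rose and 2632 fell with that block. Depth limits the scarce members most, since 3 counts are worth 1.32 CPM in eIF3m replicate 2.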
